A study of Mus musculus with 9 samples.

Results

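The genes described here are markers of microglia and macrophages, the resident and infiltrating phagocytes of nervous tissue, in the mouse retina. Of 44 genes listed for these cells, 43 were found by symbol among the 26683 rows of the gene count table, and all 43 had at least 10 counts summed over the 9 libraries and passed the filter on low counts. The listed gene Fcrls was not found by its symbol. A row named Fcrl2 carries the Entrez number 80891, which RefSeq gives to Fcrls, and it is described apart and kept out of all counts of members. The 43 genes fall into 10 genes of the homeostatic microglial state, 12 of the activated state, 17 shared by microglia and other myeloid cells, 2 that lean towards macrophages (Lyz2 and Mrc1) and 2 that encode the ligands of the CSF1 receptor (Csf1 and Il34).

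RNA of whole retinas was measured by bulk RNA sequencing, with 3 libraries in each of 3 groups. The Normoxic group came from mice raised in room air. The PBS and Gel retinas were from the oxygen-induced retinopathy (OIR) model, in which early high oxygen halts growth of the retinal vessels and abnormal vessels sprout once room air is restored. At postnatal day 15 the eyes of these mice received phosphate-buffered saline (PBS) or a hydrogel, PCC1/PHCF in the labels, that releases procyanidin C1, a plant polyphenol. Retinas were taken at postnatal day 17. The labels give no strain, and they do not state an injection for the Normoxic mice, so oxygen history and injection cannot be told apart between PBS and Normoxic. There was no group with hydrogel lacking procyanidin C1, so drug and carrier cannot be told apart in comparisons with Gel. The labels do not say whether the libraries of a group came from separate animals, and p-values measure only the spread between these libraries.

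Microglia depend on signalling through the CSF1 receptor, encoded by Csf1r, whose ligands in the nervous system are CSF1 and IL-34. In undisturbed tissue they carry a set of surface receptors and regulators that includes P2RY12, TMEM119 and SALL1, and these homeostatic genes commonly go down when microglia respond to injury. The activated state brings genes of phagocytosis, lysosomes and lipid handling such as Cd68, Lgals3 and Gpnmb, and signalling through TREM2 and its adaptor TYROBP takes part in that change. In retinas with OIR, microglia and macrophages gather around the abnormal vessels.

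Spi1, itself among the 43 genes, encodes PU.1, the transcription factor that defines the myeloid lineage and binds sequences such as GAGGAA. The 250 bases before the start of a transcript were read for 29 of the 43 genes from RefSeq (GRCm38.p6, a different build from that of the counts). GAGGAA, on either strand (TTCCTC when read on the gene's strand), stood in this window in 15 of the 29 genes (51.7%), against 25.9% of 27025 genes. The longer form GAGGAAGT, which contains GAGGAA, stood in 1 of the 29 (3.45%), against 2.79% of all genes. GAGGAA was present for 11 of 19 genes called higher in PBS than in Normoxic and for 4 of 10 not called. It was thus absent for called genes such as Cx3cr1, Lyz2 and Fcer1g and present for P2ry13, a homeostatic gene that was not called. These matches describe letters in a window and not binding. The windows of 4 of the 11 called genes that hold GAGGAA and of P2ry12, a homeostatic gene that was not called, are shown as examples. No called gene without GAGGAA and no uncalled gene with it is among them. The windows shown therefore give a contrast that does not hold over all the genes. Capitals mark GAGGAA or TTCCTC, and the P2ry12 window holds neither. Other forms of the PU.1 site were not searched for, so an unmarked window may hold one.
Itgam, chr7:128062390-128062639, plus strand: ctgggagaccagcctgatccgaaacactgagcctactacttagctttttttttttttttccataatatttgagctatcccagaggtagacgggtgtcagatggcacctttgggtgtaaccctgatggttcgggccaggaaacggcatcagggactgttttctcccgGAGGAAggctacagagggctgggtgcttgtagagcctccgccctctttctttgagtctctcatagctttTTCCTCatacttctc
Trem2, chr17:48346151-48346400, plus strand: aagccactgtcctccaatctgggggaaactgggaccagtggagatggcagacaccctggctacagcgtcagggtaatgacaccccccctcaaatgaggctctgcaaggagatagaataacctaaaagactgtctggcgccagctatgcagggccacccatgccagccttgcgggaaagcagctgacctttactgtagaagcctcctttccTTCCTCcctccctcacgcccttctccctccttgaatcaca
Laptm5, chr4:130913066-130913315, plus strand: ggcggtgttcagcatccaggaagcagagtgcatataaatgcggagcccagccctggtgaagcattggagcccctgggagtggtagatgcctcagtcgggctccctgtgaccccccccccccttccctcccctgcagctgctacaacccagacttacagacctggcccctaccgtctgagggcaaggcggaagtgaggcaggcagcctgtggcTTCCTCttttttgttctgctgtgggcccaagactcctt
Mrc1, chr2:14229164-14229413, plus strand: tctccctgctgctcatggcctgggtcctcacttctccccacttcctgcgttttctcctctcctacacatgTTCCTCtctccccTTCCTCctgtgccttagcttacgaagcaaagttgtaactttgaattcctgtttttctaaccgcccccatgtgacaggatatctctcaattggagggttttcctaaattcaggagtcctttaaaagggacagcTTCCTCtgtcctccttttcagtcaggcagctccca
P2ry12, chr3:59262986-59263235, minus strand: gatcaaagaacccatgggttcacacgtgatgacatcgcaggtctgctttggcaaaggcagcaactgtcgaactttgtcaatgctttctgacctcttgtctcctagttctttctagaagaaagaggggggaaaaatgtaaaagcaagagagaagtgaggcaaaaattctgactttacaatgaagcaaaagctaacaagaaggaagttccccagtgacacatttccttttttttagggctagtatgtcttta

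Levels are given as CPM, the count of a gene scaled to one common library total. Library totals ran from 29324142 to 35663470 counts, and the counting error of a low CPM value follows from them. Log2 fold changes, with standard errors (SE), and p-values come from edgeR's quasi-likelihood test on the counts of all 9 libraries. They are adjusted by the Benjamini-Hochberg method over the 17362 genes kept, and a gene is called where the adjusted p is under 0.05. Summed rod genes lay between 44481 and 62704 CPM in every library, which matches the labelled tissue. PBS replicate 3 stood apart: ribosomal protein genes took 2.68% of its counts, against 1.08% to 1.66% elsewhere, and its difference from the other PBS libraries fell with gene length (Spearman -0.58 across genes). The same correlation was 0.40 and 0.55 for PBS replicates 1 and 2 and 0.41, -0.40 and -0.25 for Gel replicates 1, 2 and 3. In Normoxic it lay between -0.08 and 0.05. Over the 43 genes the log2 fold change had a Spearman correlation with gene length of 0.28 in Gel against PBS and -0.15 in PBS against Normoxic. PBS replicate 3 was the highest PBS library for 29 of the 43 genes, against 36.01% of the 16727 genes with at least 100 counts, and Gel replicate 1 was the lowest Gel library for 31 of the 43, against 40.71% of those genes. Whether library quality had a part in the results was not tested, and counts are therefore also given without these libraries.

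The retinas of PBS-treated OIR mice carried more microglial and macrophage RNA than Normoxic retinas. Of the 43 genes, 27 were called higher in PBS and 0 lower, against 4.31% of all genes tested called higher and 2.03% called lower. The median log2 fold change was 1.69 over the 43 genes and 0.01 over all genes. In 34 of the 43 genes every PBS library exceeded every Normoxic library, against 14.9% of all genes. Lpl alone lay below Normoxic without overlap, as did 14.1% of all genes, and its margin was small (25.7 CPM in PBS replicate 2 against 25.9 CPM in Normoxic replicate 2). In Normoxic 6 of the 43 (Gpr34, Clec7a, Itgax, Msr1, Cd86 and Mrc1) lay under the filter level of 0.319 CPM, and of the other 37 genes 23 were called. In whole retina, more cells of a type and more RNA per cell cannot be told apart. The rise was uneven across roles: 2 of 10 homeostatic genes were called higher (median log2 fold change 0.53), against 8 of 12 activated genes (1.74), 15 of 17 shared myeloid genes (1.84) and both macrophage-leaning genes. Among genes above the filter level in Normoxic, the counts were 2 of 9 homeostatic, 5 of 8 activated and 15 of 17 shared myeloid genes. Of the macrophage-leaning genes only 1, Lyz2, lay above that level, and it was called. The difference between these medians was not tested. Without PBS replicate 3, 24 of the 43 genes were called and the median was 1.38. The count fell to 17 without Normoxic replicate 2.

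**Figure D1:**
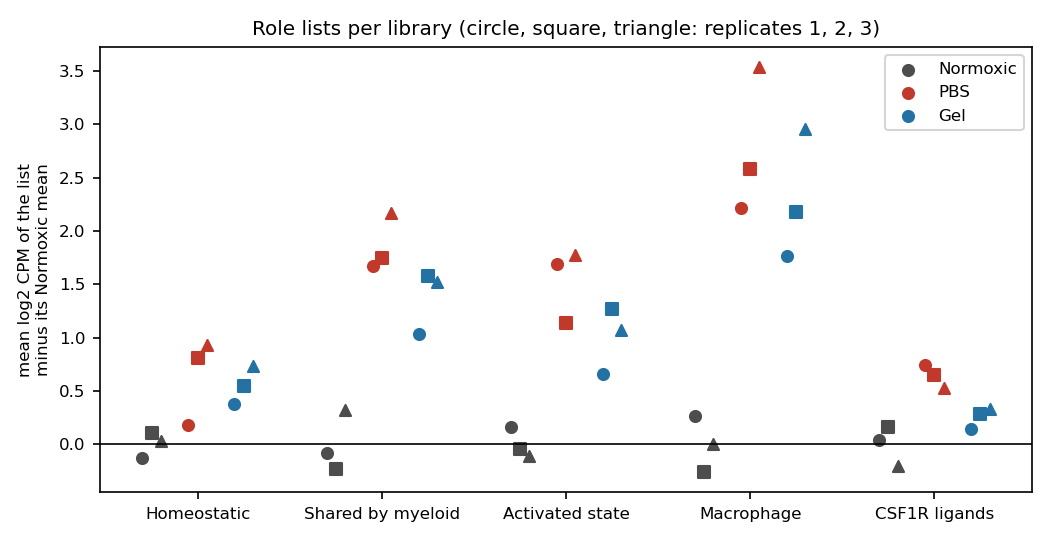
Mean log2 level of the genes of each role in every library, relative to the mean of the 3 Normoxic libraries. Each point is 1 library. The activated and shared myeloid genes of the PBS libraries lie farther above Normoxic than the homeostatic genes do, and the Gel values of the shared myeloid genes run from 1.04 to 1.58, against 1.67 to 2.17 in PBS.

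Among homeostatic genes, the receptors Csf1r and Cx3cr1 rose. Csf1r measured 14.6, 13.1 and 15.3 CPM in the Normoxic libraries, 28.7, 32.5 and 36.3 CPM in the PBS libraries and 33.4, 35.6 and 35.1 CPM in the Gel libraries. All PBS libraries exceeded all Normoxic libraries, with a log2 fold change of 1.20 ± 0.13 (adjusted p = 0.000549). Cx3cr1, the receptor for the neuronal chemokine fractalkine, measured 6.72, 4.95 and 5.45 CPM in the Normoxic libraries, 10.8, 11.7 and 12.9 CPM in the PBS libraries and 9.36, 10.1 and 11.98 CPM in the Gel libraries. It also rose without overlap, with a log2 fold change of 1.06 ± 0.16 (adjusted p = 0.00413), and both genes were called in all 17 alternative analyses.

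The purinergic receptor gene P2ry12 measured 2.01, 2.22 and 1.96 CPM in the Normoxic libraries, 1.56, 2.62 and 3.12 CPM in the PBS libraries and 1.82, 2.47 and 4.42 CPM in the Gel libraries. PBS libraries lay on both sides of the Normoxic range, and the log2 fold change of 0.26 ± 0.36 was not past the threshold (adjusted p = 0.705). Siglech, a sialic acid-binding lectin of microglia, measured 1.60, 1.51 and 1.86 CPM in the Normoxic libraries, 1.27, 1.91 and 2.76 CPM in the PBS libraries and 1.95, 1.60 and 2.52 CPM in the Gel libraries. It overlapped in the same way (log2 fold change 0.28 ± 0.33, adjusted p = 0.647). Both rested on PBS replicate 3 for their small positive values, which became -0.0036 for P2ry12 and -0.08 for Siglech without it. Sall1, a transcription factor that maintains microglial identity and is also made by other cells, measured 2.32, 2.49 and 2.48 CPM in the Normoxic libraries, 2.48, 3.82 and 2.84 CPM in the PBS libraries and 4.34, 3.20 and 3.08 CPM in the Gel libraries. It was not called (log2 fold change 0.33 ± 0.23, adjusted p = 0.437).

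Tmem119, a microglial membrane protein, measured 1.398, 2.00 and 3.33 CPM in the Normoxic libraries, 4.27, 4.57 and 4.78 CPM in the PBS libraries and 3.37, 3.56 and 2.58 CPM in the Gel libraries. Its PBS libraries were all above Normoxic, yet its log2 fold change of 1.02 ± 0.30 did not pass the threshold (adjusted p = 0.0726). It was called with DESeq2 (adjusted p = 0.0132), limma-voom (0.0459) and limma on log2(FPKM + 1) (0.0417) and without Normoxic replicate 3 (0.0265). The remaining homeostatic genes were not called either. Olfml3, a secreted matrix protein, measured 8.90, 9.97 and 9.44 CPM in the Normoxic libraries, 9.84, 12.9 and 14.9 CPM in the PBS libraries and 8.28, 10.7 and 10.3 CPM in the Gel libraries, with overlap and a log2 fold change of 0.42 ± 0.18 (adjusted p = 0.202). The fructose transporter gene Slc2a5 had a log2 fold change of -0.01 ± 0.42, the receptor gene P2ry13 one of 0.64 ± 0.41 and the receptor gene Gpr34 one of 1.91 ± 0.67 (adjusted p = 0.992, 0.385 and 0.128). In all, 8 of the 10 homeostatic genes did not pass the threshold, though Gpr34 was called with DESeq2 (0.0485) and without PBS replicate 1 (0.0303).

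Fcrl2, the row that shares its Entrez number with the homeostatic gene Fcrls, was called higher, unlike P2ry12 and Siglech. It measured 0.921, 1.54 and 1.21 CPM in the Normoxic libraries, 8.66, 9.92 and 13.4 CPM in the PBS libraries and 4.88, 8.33 and 7.06 CPM in the Gel libraries. The rise was without overlap, with a log2 fold change of 3.13 ± 0.29 (adjusted p = 0.000297).

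**Figure D2:**
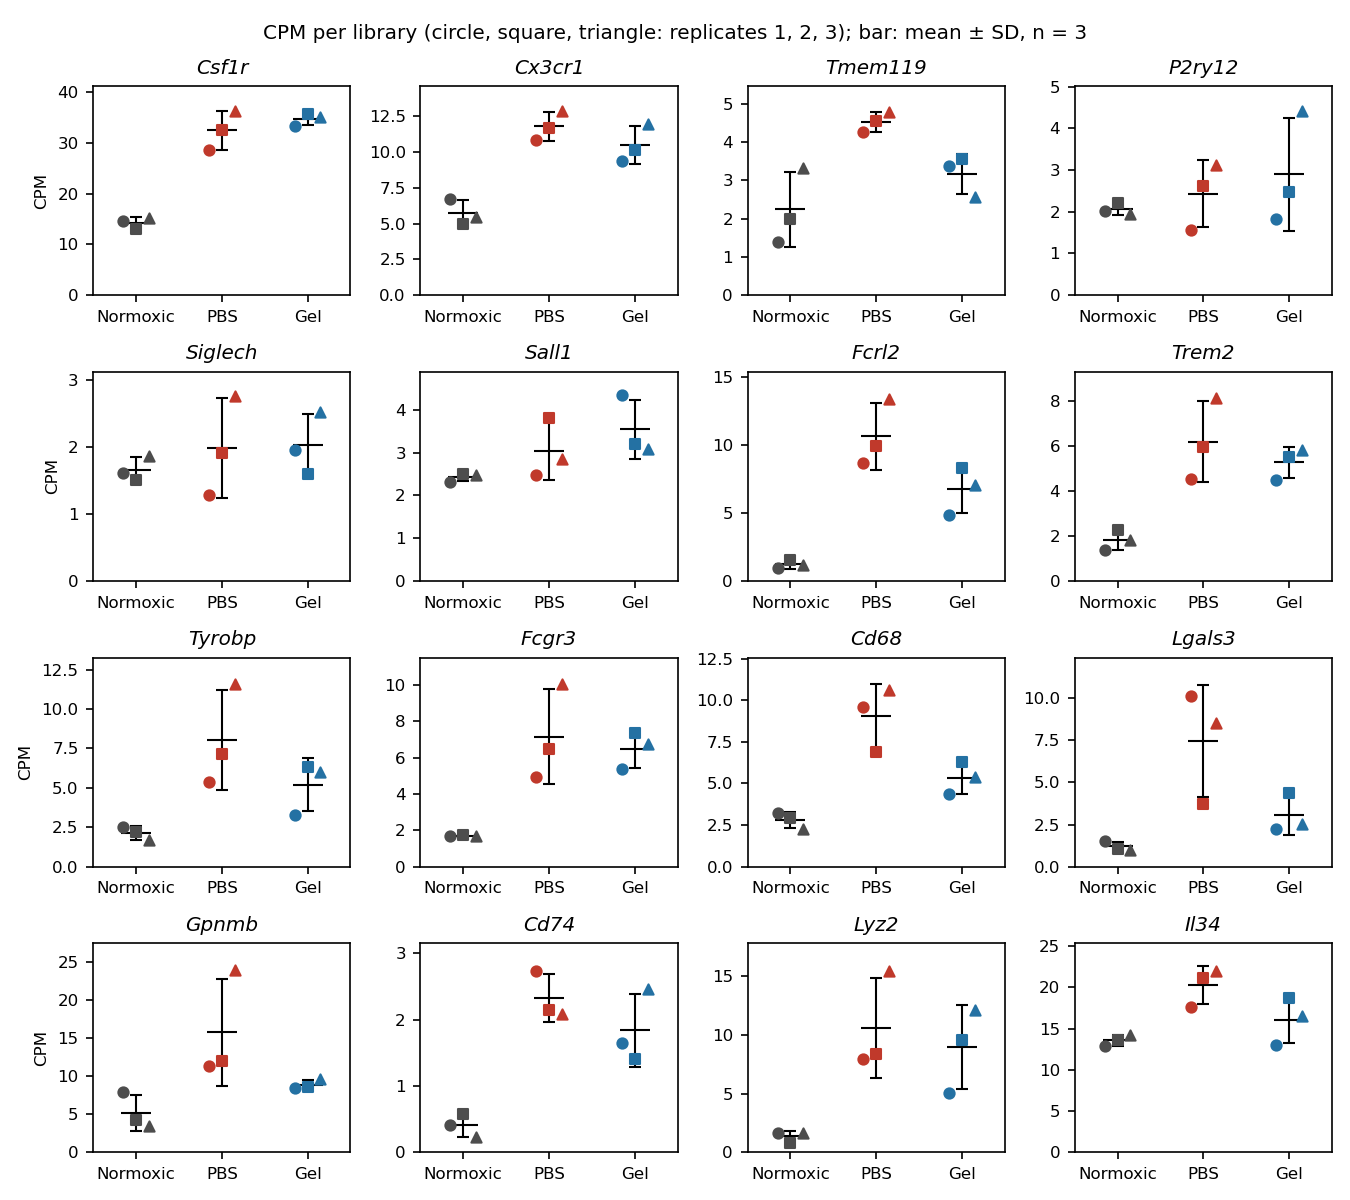
CPM of selected genes in each of the 9 libraries by group, with bars at the group mean ± SD (n = 3). Csf1r, Trem2 and Lyz2 separate PBS from Normoxic, whereas P2ry12 and Siglech overlap between all groups.

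Among activated genes, Cd68, Lgals3 and Axl rose. Cd68, a lysosomal membrane glycoprotein of phagocytes, measured 3.21, 2.95 and 2.29 CPM in the Normoxic libraries, 9.62, 6.88 and 10.6 CPM in the PBS libraries and 4.38, 6.31 and 5.37 CPM in the Gel libraries. The PBS libraries were at more than the highest Normoxic value in every case, with a log2 fold change of 1.70 ± 0.24 (adjusted p = 0.00255). Lgals3, the beta-galactoside-binding lectin galectin-3, measured 1.53, 1.05 and 1.01 CPM in the Normoxic libraries, 10.1, 3.71 and 8.50 CPM in the PBS libraries and 2.22, 4.37 and 2.52 CPM in the Gel libraries. It rose 6.31-fold (log2 fold change 2.66 ± 0.41, adjusted p = 0.00419), with PBS replicate 2 well below the other PBS libraries. Axl, a receptor kinase for clearance of dying cells, measured 23.6, 24.8 and 20.3 CPM in the Normoxic libraries, 49.4, 39.1 and 37.7 CPM in the PBS libraries and 26.2, 33.2 and 33.3 CPM in the Gel libraries. It rose without overlap by 0.89 ± 0.14 on the log2 scale (adjusted p = 0.00506).

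Gpnmb, a glycoprotein of lysosomes and pigment granules, measured 7.95, 4.21 and 3.46 CPM in the Normoxic libraries, 11.4, 11.99 and 23.97 CPM in the PBS libraries and 8.42, 8.66 and 9.67 CPM in the Gel libraries. PBS replicate 3 was far above the other PBS libraries, and the log2 fold change was 1.63 ± 0.35 (adjusted p = 0.0189). The call was lost without Normoxic replicate 2 (adjusted p = 0.0885) and without Normoxic replicate 3 (0.0828). Markers of pigment epithelium, which also makes Gpnmb, summed to 105, 55.5 and 39.3 CPM (Normoxic), 64.1, 79.8 and 281 CPM (PBS) and 137, 193 and 130 CPM (Gel). All 8 of these markers were detected, and 0 of 8 were called in PBS against Normoxic. Their sum was highest in PBS replicate 3 and, within Normoxic, in replicate 1, the same libraries in which Gpnmb was highest. Within Gel their sum was highest in replicate 2 and Gpnmb in replicate 3. Every Gel sum exceeded those of PBS replicates 1 and 2. By the mean log2 CPM of the same markers, however, Gel replicate 1 (2.15) lay below PBS replicate 2 (2.19). Gpnmb was lower in every Gel library than in PBS replicates 1 and 2. The part of the pigment epithelium in the Gpnmb result was not tested.

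Cd74 and Cd86, genes of antigen presentation and co-stimulation, rose from low levels. Cd74, the invariant chain of MHC class II, measured 0.409, 0.585 and 0.229 CPM in the Normoxic libraries, 2.74, 2.15 and 2.08 CPM in the PBS libraries and 1.65, 1.402 and 2.46 CPM in the Gel libraries (log2 fold change 2.504 ± 0.38, adjusted p = 0.00371). Cd86, a co-stimulatory ligand for T cells, measured 0.171, 0.0615 and 0.0653 CPM in the Normoxic libraries, 0.892, 0.613 and 0.872 CPM in the PBS libraries and 0.404, 0.673 and 0.415 CPM in the Gel libraries (log2 fold change 2.99 ± 0.52, adjusted p = 0.00729). Both separated PBS from Normoxic without overlap. The beta-glucan receptor gene Clec7a measured 0.0341, 0.185 and 0.163 CPM in the Normoxic libraries, 0.828, 0.545 and 0.591 CPM in the PBS libraries and 0.337, 0.617 and 0.564 CPM in the Gel libraries (log2 fold change 2.32 ± 0.55, adjusted p = 0.0313). The integrin gene Itgax, which encodes CD11c, measured 0.0682, 0 and 0.163 CPM in the Normoxic libraries, 0.796, 0.443 and 0.900 CPM in the PBS libraries and 0.135, 0.561 and 0.148 CPM in the Gel libraries (log2 fold change 3.19 ± 0.84, adjusted p = 0.0476). Cd86, Clec7a and Itgax rested on few counts, lay under the filter level in Normoxic and passed the filter through libraries in which they were high. Clec7a lost its call without any single Normoxic library (adjusted p = 0.1034, 0.0782 and 0.0902 without replicates 1, 2 and 3), without PBS replicate 1 (0.0819), without Gel replicate 2 (0.0531) or 3 (0.0541), and in a fit of only the groups compared (0.0571). Itgax lost its call without Normoxic replicate 1, 2 or 3 (0.1636, 0.1549 and 0.0711), without PBS replicate 1 or 3 (0.0884 and 0.085) and without Gel replicate 3 (0.0631). It was also lost without the low count filter (0.0577) and with limma on log2(FPKM + 1) (0.0614). Its log2 fold change was 2.59 without Normoxic replicate 2 and 4.33 without Normoxic replicate 3, and that of Cd86 was 3.57 without Normoxic replicate 1.

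Not every gene named for activation rose. Lpl, a lipase that microglia share with other retinal cells, measured 33.0, 25.9 and 26.03 CPM in the Normoxic libraries, 20.9, 25.7 and 24.6 CPM in the PBS libraries and 23.7, 23.6 and 28.7 CPM in the Gel libraries. Every PBS library lay below every Normoxic library, the nearest by a small margin, and the log2 fold change of -0.24 ± 0.14 was not called (adjusted p = 0.330). Spp1, the secreted protein osteopontin, which neurons also make, measured 11.6, 12.3 and 12.8 CPM in the Normoxic libraries, 12.97, 14.1 and 18.5 CPM in the PBS libraries and 9.76, 13.1 and 16.2 CPM in the Gel libraries. It lay above Normoxic without overlap, by a small margin, and was not called (log2 fold change 0.33 ± 0.20, adjusted p = 0.370). Cd14, a co-receptor for bacterial lipopolysaccharide, had a log2 fold change of 1.39 ± 0.44 and the scavenger receptor gene Msr1 one of 1.77 ± 0.77, neither called (adjusted p = 0.0934 and 0.212), though Cd14 was called with DESeq2 (0.0275) and without PBS replicate 2 (0.0229). Lpl and Spp1 were also the activated genes with the highest FPKM (a level corrected for gene length as well as for the library total) in Normoxic retinas, at 6.99 and 7.38, where Cd68 stood at 2.26 and Lgals3 at 0.852.

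Among the shared myeloid genes, 15 of 17 were called higher, and all 17 had higher levels in every PBS library than in any Normoxic library. Trem2, the lipid-sensing receptor, measured 1.36, 2.28 and 1.83 CPM in the Normoxic libraries, 4.52, 5.96 and 8.13 CPM in the PBS libraries and 4.51, 5.52 and 5.81 CPM in the Gel libraries (log2 fold change 1.78 ± 0.28, adjusted p = 0.00425). Its signalling adaptor gene Tyrobp measured 2.52, 2.22 and 1.67 CPM in the Normoxic libraries, 5.38, 7.12 and 11.6 CPM in the PBS libraries and 3.27, 6.31 and 6.02 CPM in the Gel libraries (log2 fold change 1.93 ± 0.35, adjusted p = 0.00826). As factors, these are rises of 3.43-fold for the receptor and 3.82-fold for its adaptor. Laptm5, a lysosomal membrane protein of blood-lineage cells, measured 3.99, 5.60 and 6.76 CPM in the Normoxic libraries, 12.7, 14.3 and 12.8 CPM in the PBS libraries and 12.7, 12.4 and 10.5 CPM in the Gel libraries (log2 fold change 1.29 ± 0.19, adjusted p = 0.00341). Spi1 measured 0.648, 0.308 and 0.817 CPM in the Normoxic libraries, 2.33, 2.90 and 2.42 CPM in the PBS libraries and 1.51, 1.85 and 1.33 CPM in the Gel libraries and rose 4.33-fold (log2 fold change 2.11 ± 0.35, adjusted p = 0.00581). The rise of Laptm5 was the second smallest of the 17 by log2 fold change, and only that of Ctss, a lysosomal protease, was smaller at 1.21 ± 0.22.

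The receptors for antibody Fc regions rose. Fcgr1, the high-affinity activating receptor, measured 0.580, 0.646 and 0.653 CPM in the Normoxic libraries, 3.57, 3.92 and 4.50 CPM in the PBS libraries and 1.04, 3.59 and 2.85 CPM in the Gel libraries. Its rise of 6.40-fold (log2 fold change 2.68 ± 0.41, adjusted p = 0.00402) was the largest among the shared myeloid genes. Fcgr3, a low-affinity activating receptor, measured 1.71, 1.75 and 1.67 CPM in the Normoxic libraries, 4.94, 6.47 and 10.04 CPM in the PBS libraries and 5.35, 7.37 and 6.73 CPM in the Gel libraries (log2 fold change 2.08 ± 0.28, adjusted p = 0.00220). The inhibitory receptor gene Fcgr2b measured 0.477, 0.215 and 0.555 CPM in the Normoxic libraries, 2.42, 1.98 and 2.11 CPM in the PBS libraries and 1.25, 2.24 and 1.90 CPM in the Gel libraries (log2 fold change 2.39 ± 0.38, adjusted p = 0.00499). Activating and inhibitory receptors both rose, as did the shared signalling chain gene Fcer1g (log2 fold change 1.52 ± 0.27, adjusted p = 0.00767). Each of these 4 calls held in every one of the 17 alternatives.

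The integrin subunits of complement receptor 3 also rose. Itgam, which encodes CD11b, measured 1.47, 1.23 and 2.87 CPM in the Normoxic libraries, 5.99, 6.71 and 5.68 CPM in the PBS libraries and 3.33, 5.55 and 5.07 CPM in the Gel libraries (log2 fold change 1.73 ± 0.32, adjusted p = 0.00934), and its partner subunit gene Itgb2 had a log2 fold change of 2.33 ± 0.41 (adjusted p = 0.00753). The call of Itgam was lost without Normoxic replicate 1 (adjusted p = 0.0544) or 2 (0.0502). Adgre1, which encodes the macrophage antigen F4/80, rose by 2.49 ± 0.54 on the log2 scale, P2ry6, the UDP receptor for phagocytosis, by 2.22 ± 0.51, Ly86, a partner of a Toll-like receptor relative, by 1.66 ± 0.39, and the tetraspanin gene Cd53 by 1.51 ± 0.32. Each of these, and Ctss, was called but lost its call without at least 1 library: Adgre1 without Normoxic replicate 1 or 2 (adjusted p = 0.0519 and 0.0849), Ctss without the same libraries (0.0532 and 0.0576), P2ry6 without these or PBS replicate 3 (0.0597, 0.1071 and 0.0527), Ly86 without Normoxic replicate 1, 2 or 3 or PBS replicate 1 or 3 (0.0559 to 0.1254), and Cd53 without Normoxic replicate 1, 2 or 3 or PBS replicate 3 (0.0522 to 0.0783). The call of P2ry6 was also lost in a fit of only the groups compared (0.0637). Without Normoxic replicate 3 the log2 fold changes of Adgre1 and P2ry6 were 3.12 and 2.90.

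Aif1 and Ptprc were the shared myeloid genes that missed the threshold. Aif1, which encodes the widely used microglial stain IBA1, measured 0.409, 0.708 and 0.947 CPM in the Normoxic libraries, 1.31, 2.25 and 3.77 CPM in the PBS libraries and 0.539, 1.54 and 1.13 CPM in the Gel libraries. Its PBS libraries did not overlap Normoxic, spread over a wide range, and gave a log2 fold change of 1.84 ± 0.51 (adjusted p = 0.0580). Aif1 was called with DESeq2 (adjusted p = 0.00578), with the length trend removed (0.0449) and without PBS replicate 1 (0.0366) or Gel replicate 1 (0.0403). Ptprc, the pan-leukocyte antigen CD45, measured 0.648, 0.0615 and 0.359 CPM in the Normoxic libraries, 1.08, 0.920 and 1.38 CPM in the PBS libraries and 0.875, 0.841 and 0.653 CPM in the Gel libraries. It was likewise without overlap (log2 fold change 1.69 ± 0.56, adjusted p = 0.111), and it was called with DESeq2 (0.0282).

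**Figure D3:**
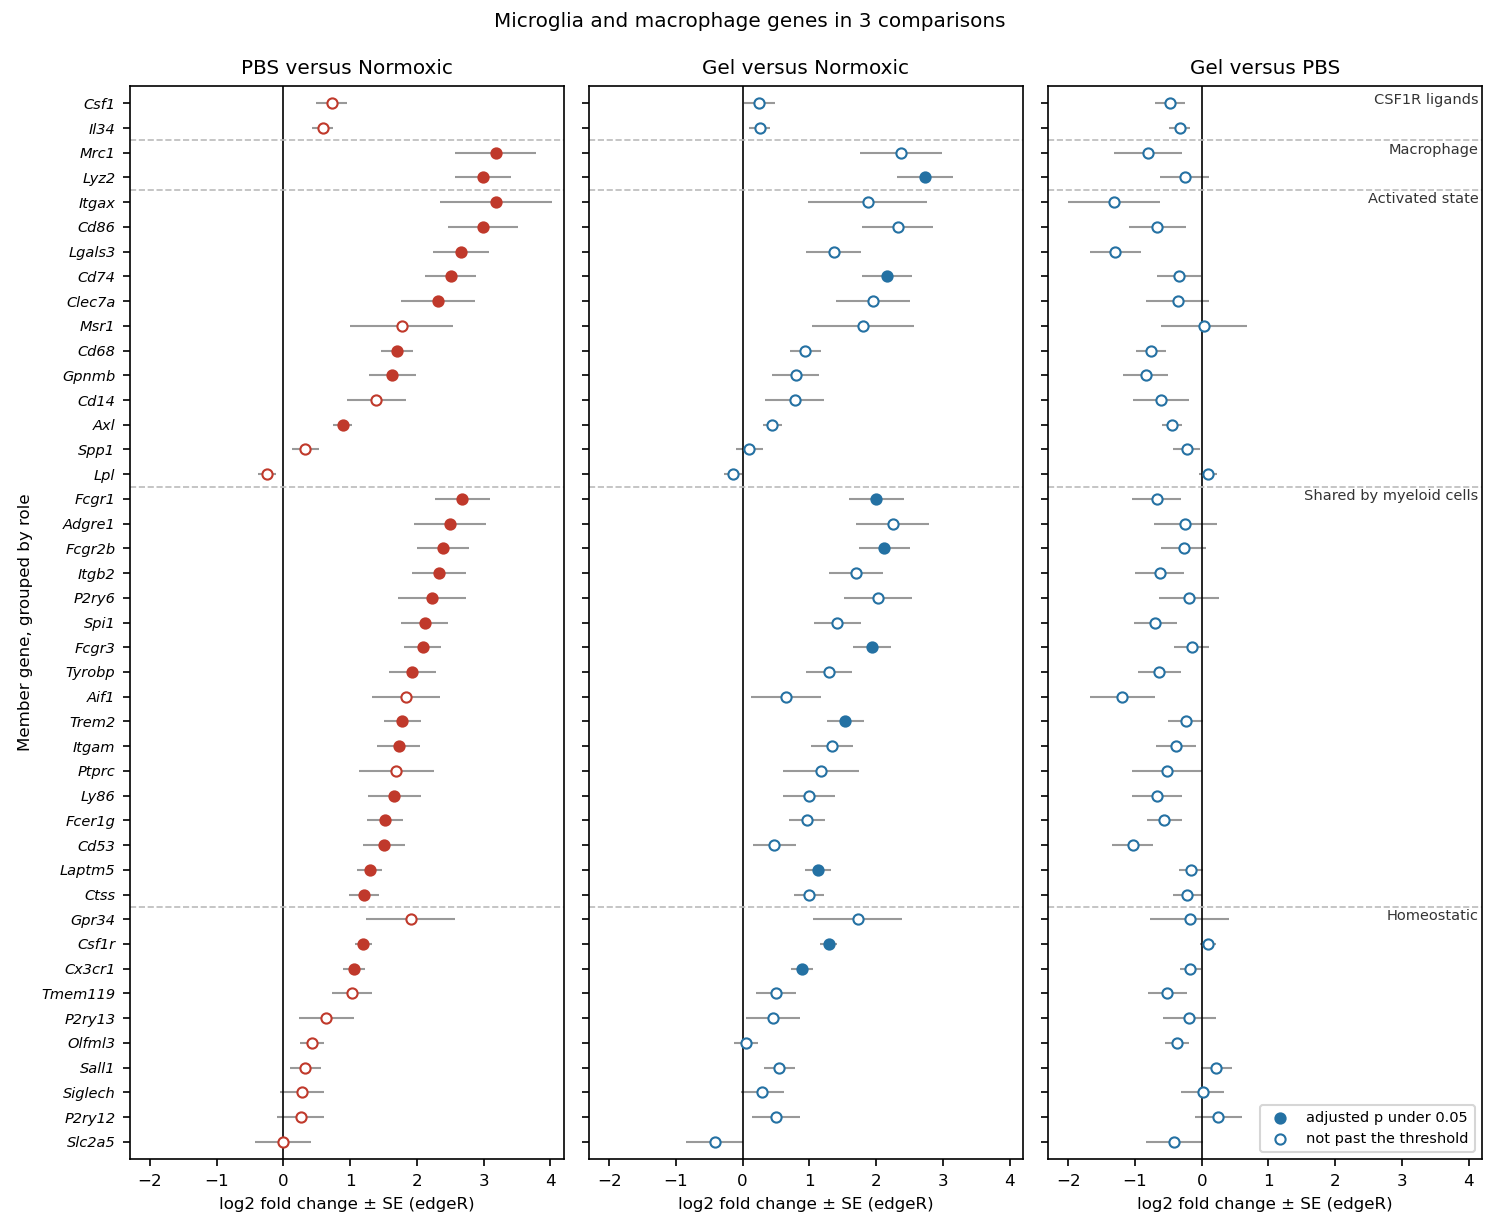
Log2 fold change of each of the 43 genes in PBS against Normoxic, Gel against Normoxic and Gel against PBS, with bars of 1 standard error, grouped by role. Filled points passed the adjusted threshold. In PBS against Normoxic the shared myeloid genes lie between 1.21 and 2.68 and the homeostatic genes between -0.01 and 1.91. In Gel against PBS most points lie at or below 0 and none was called.

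The macrophage-leaning genes showed some of the largest changes, but Mrc1 lay under the filter level in Normoxic. It passed the filter through libraries in which it was high. Lyz2, lysozyme of phagocytes, measured 1.67, 0.769 and 1.63 CPM in the Normoxic libraries, 7.93, 8.38 and 15.5 CPM in the PBS libraries and 5.08, 9.62 and 12.2 CPM in the Gel libraries. It rose 7.96-fold (log2 fold change 2.99 ± 0.42, adjusted p = 0.00275) without overlap, and was called in every alternative. Mrc1, the mannose receptor CD206 of perivascular and border macrophages, measured 0.205, 0.215 and 0.131 CPM in the Normoxic libraries, 0.828, 1.33 and 2.81 CPM in the PBS libraries and 0.673, 0.645 and 1.57 CPM in the Gel libraries. It rose 9.05-fold (log2 fold change 3.18 ± 0.61, adjusted p = 0.0113), a value of 2.51 on the log2 scale without PBS replicate 3. The Mrc1 call was lost without Normoxic replicate 1, 2 or 3 (adjusted p = 0.0541, 0.0502 and 0.0602) and with limma on log2(FPKM + 1) (0.0852).

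Markers of other blood-derived cells were checked beside these genes. Ccr2, the chemokine receptor of inflammatory monocytes, gave counts of 0, 0 and 0 (Normoxic), 7, 1 and 0 (PBS) and 0, 0 and 4 (Gel). Those of Ly6c2, another monocyte marker, were 0, 0 and 1, then 7, 0 and 2, then 0, 1 and 1. The neutrophil gene S100a8 gave 0, 0 and 0, then 1, 0 and 7, then 0, 0 and 4, and Ly6g at most 1 count in any library. Counts of these 4 markers were therefore at or near 0 in every group. Of the whole list of 8 monocyte genes, 3 were tested. In PBS against Normoxic 2 were called higher and 0 lower, against 4.31% and 2.03% of all genes tested. Only 2 of the 3 lay above the filter level in the group where they were lower, and 1 of these, Fn1, was called. The other called gene, Plac8, passed the filter through libraries in which it was high. Plac8, a gene of monocytes and other leukocytes, went from counts of 0, 1 and 0 (Normoxic) to 11, 16 and 25 (PBS) and 6, 23 and 18 (Gel) and was called (adjusted p = 0.00729). Fn1, the matrix protein fibronectin, which vascular cells also make, measured 86.4, 102 and 124 CPM in the Normoxic libraries, 333, 213 and 171 CPM in the PBS libraries and 208, 159 and 151 CPM in the Gel libraries (log2 fold change 1.20 ± 0.23, adjusted p = 0.0124). It made up most of the list's summed level, which ran from 97.3 to 135 CPM in the Normoxic, 179.6 to 344 CPM in the PBS and 160.8 to 218 CPM in the Gel libraries. Of the 10 genes of border macrophages, 8 were tested in PBS against Normoxic, 3 were called higher and 1 lower. Only 2 of the 8, Stab1 and Lyve1, lay above the filter level in the group where they were lower, and the others passed the filter through the groups in which they were high. Cd163, a haemoglobin scavenger receptor, went from counts of 1, 0 and 1 in the Normoxic libraries to 7, 17 and 29 in the PBS libraries, and Ms4a7 from 1, 1 and 1 to 6, 16 and 17, both called higher. Stab1, a scavenger receptor also made by endothelium, rose by 1.39 ± 0.16 on the log2 scale (adjusted p = 0.000979). Lyve1, a hyaluronan receptor of some macrophages and of lymphatic vessels, was lower (log2 fold change -0.75 ± 0.16, adjusted p = 0.0201). The part of these cells in the rise of Lyz2 and Mrc1 was not tested.

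The genes of the CSF1 receptor's ligands were not called. Csf1 measured 8.32, 9.35 and 5.36 CPM in the Normoxic libraries, 16.2, 11.9 and 9.65 CPM in the PBS libraries and 9.43, 8.10 and 9.70 CPM in the Gel libraries, above Normoxic without overlap in PBS but not called (log2 fold change 0.72 ± 0.23, adjusted p = 0.0921). Il34, the ligand made by neurons, measured 12.9, 13.7 and 14.2 CPM in the Normoxic libraries, 17.6, 21.2 and 21.9 CPM in the PBS libraries and 13.1, 18.7 and 16.5 CPM in the Gel libraries and stood in the same position (log2 fold change 0.59 ± 0.16, adjusted p = 0.0514). Both were called with DESeq2 (adjusted p = 0.0328 for Csf1 and 0.0106 for Il34) and with the length trend removed (0.0473 and 0.0353). Csf1 was also called without PBS replicate 3 (0.0380), and Il34 without PBS replicate 1 (0.0465) or Gel replicate 1 (0.0286). Of 15 genes that act downstream of CSF1R and TREM2, 14 were tested, 6 were called higher and 0 lower. Of the 13 that lay above the filter level in the group where they were lower, 5 were called higher. Vav1, a guanine nucleotide exchange factor of blood cells, measured 0.205, 0.400 and 0.457 CPM in the Normoxic libraries, 2.20, 1.94 and 1.94 CPM in the PBS libraries and 1.28, 1.77 and 0.949 CPM in the Gel libraries (log2 fold change 2.51 ± 0.38, adjusted p = 0.00391). Inpp5d, the phosphatase SHIP1 that restrains TREM2 signalling, rose by 1.31 ± 0.22 on the log2 scale (adjusted p = 0.00645), and the kinase gene Lyn by 1.03 ± 0.24 (adjusted p = 0.0279). Syk, the kinase that couples to TYROBP, was not called (log2 fold change 0.93 ± 0.31, adjusted p = 0.113).

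Further genes of the same states, beyond the 43, were read from separate lists. Of 15 other homeostatic genes 2 were called higher and 0 lower (median log2 fold change 0.73), against 4.31% and 2.03% of all genes tested. One of the 2 was Irf8, a myeloid transcription factor (log2 fold change 1.58 ± 0.26, adjusted p = 0.00540). Of 20 other activation genes 17 were tested, 12 were called higher and 0 lower (median 1.14). Of the 15 that lay above the filter level in the group where they were lower, 10 were called higher. The complement gene C1qa measured 6.17, 6.40 and 7.32 CPM in the Normoxic libraries, 25.2, 24.02 and 43.0 CPM in the PBS libraries and 15.3, 26.05 and 23.0 CPM in the Gel libraries (log2 fold change 2.23 ± 0.27, adjusted p = 0.00117), and C1qb and C1qc rose by 2.32 ± 0.27 and 2.17 ± 0.26 on the log2 scale (adjusted p = 0.000867 and 0.00103). The C1q genes, whose products tag material for clearance, thus rose as a trio. The leukocyte surface gene Cd52 rose by 3.15 ± 0.39 (adjusted p = 0.00117), C3, the central complement protein, by 2.25 ± 0.26 (adjusted p = 0.000867) and Plin2, a coat protein of lipid droplets, by 1.29 ± 0.16 (adjusted p = 0.00130). Apoe, which is abundant in glia, was not called (log2 fold change 0.39 ± 0.19, adjusted p = 0.255).

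Because Csf1r itself rose, 19 genes were also expressed as a percentage of the Csf1r count in the same library. Library size cancels in this ratio, which is compared only between groups, since gene lengths differ. With Csf1r higher in PBS and Gel, a gene with unchanged CPM has a lower ratio there. A lower ratio thus does not show that the gene itself fell. The share of such ratios over all genes was not taken. The ratio was taken for 9 homeostatic genes, 6 of the 12 activated and 2 of the 17 shared myeloid genes, and for Lyz2 and Fcrl2. P2ry12 made up 13.8, 16.9 and 12.8% of Csf1r (Normoxic), 5.44, 8.07 and 8.60% (PBS) and 5.44, 6.93 and 12.6% (Gel). For Siglech the values were 10.98, 11.5 and 12.2% (Normoxic), 4.44, 5.87 and 7.60% (PBS) and 5.85, 4.49 and 7.19% (Gel). Both ratios were lower in all PBS and all Gel libraries than in any Normoxic library. Sall1 stood at 15.9, 19.1 and 16.3% (Normoxic), 8.67, 11.7 and 7.83% (PBS) and 13.004, 8.98 and 8.80% (Gel), again lower in PBS and Gel without overlap.

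Olfml3 amounted to 61.0, 76.2 and 61.9% (Normoxic), 34.3, 39.6 and 40.9% (PBS) and 24.8, 29.9 and 29.4% (Gel) of Csf1r. Here the order was Normoxic above PBS above Gel, with no overlap between neighbours. Of the 9 homeostatic ratios, 5 were lower in PBS than in Normoxic without overlap, Slc2a5 among them, and 4 overlapped. Those were Cx3cr1, Tmem119, P2ry13 and Gpr34, the last with a higher mean in PBS. Cx3cr1 stood at 46.0, 37.9 and 35.8% (Normoxic), 37.8, 35.8 and 35.5% (PBS) and 28.02, 28.4 and 34.2% (Gel), with Normoxic and PBS overlapping. Lower ratios were not limited to homeostatic genes. Lpl, of the activated list, stood at 226, 198 and 171% (Normoxic), 72.9, 79.1 and 67.7% (PBS) and 70.9, 66.2 and 81.7% (Gel), and Spp1 at 79.2, 94.1 and 84.2% (Normoxic), 45.2, 43.5 and 50.9% (PBS) and 29.2, 36.9 and 46.3% (Gel), both lower in PBS and Gel without overlap. Of the other activated genes with a ratio, Lgals3 was higher without overlap in PBS, and Cd68, Gpnmb and Axl overlapped. No ratio was taken for Cd74, Cd86, Clec7a, Itgax, Cd14 and Msr1. Tyrobp stood at 17.3, 16.9 and 10.9% (Normoxic), 18.8, 21.9 and 31.9% (PBS) and 9.78, 17.7 and 17.2% (Gel). It was higher in PBS than in Normoxic without overlap, and Trem2 overlapped. Lyz2 stood at 11.4, 5.88 and 10.7% (Normoxic), 27.7, 25.8 and 42.6% (PBS) and 15.2, 27.0 and 34.7% (Gel). Fcrl2 stood at 6.31, 11.8 and 7.92% (Normoxic), 30.2, 30.5 and 36.9% (PBS) and 14.6, 23.4 and 20.1% (Gel), and both were higher in PBS and Gel than in any Normoxic library. With 3 libraries against 3, a two-sided exact permutation test cannot go below p = 0.1, the value reached by each ratio without overlap, and over the 57 tests of 19 ratios the smallest Benjamini-Hochberg adjusted p was 0.19. None of these ratios passes a threshold of 0.05.

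**Figure D4:**
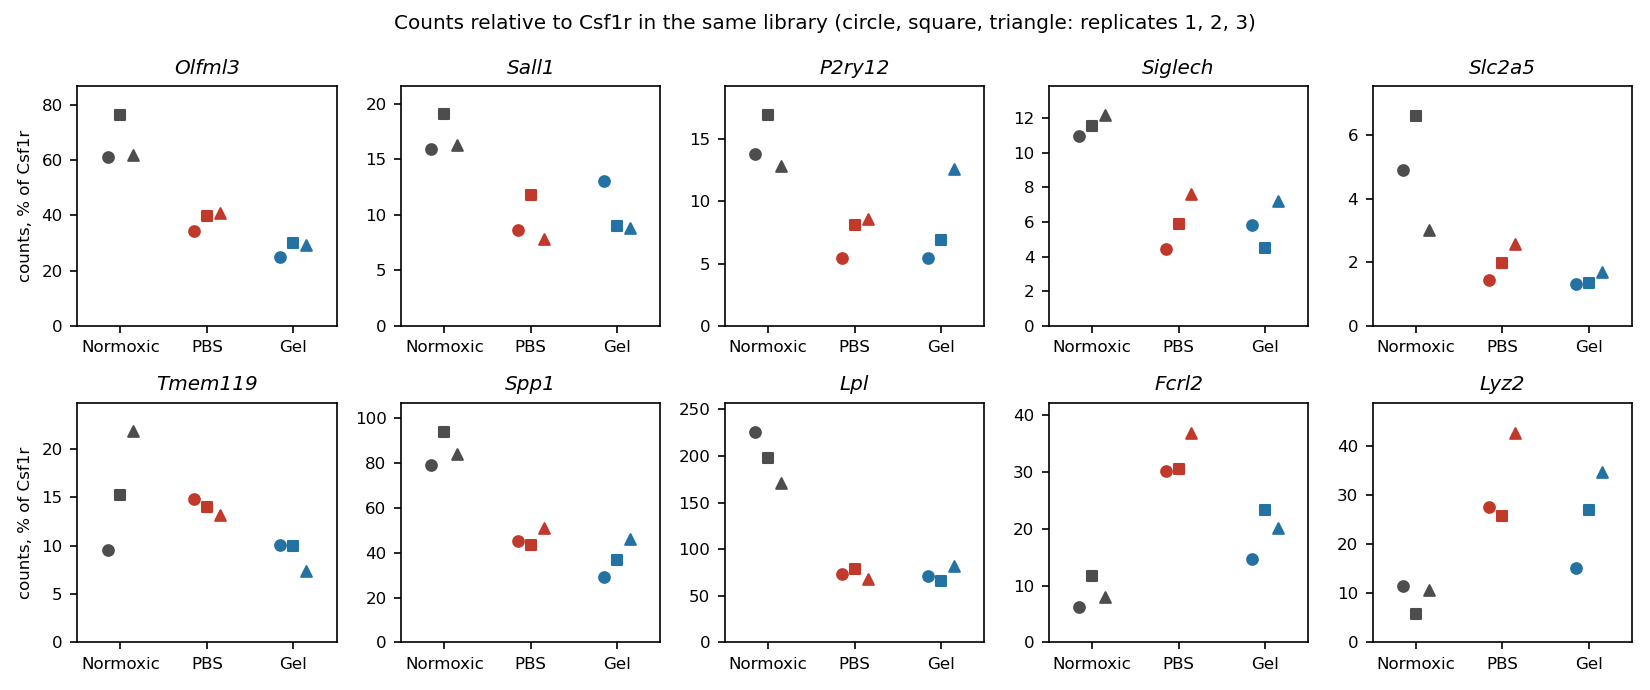
Counts of selected genes as a percentage of the Csf1r count in the same library, with 1 point for each of the 9 libraries by group. P2ry12, Siglech, Sall1, Olfml3, Slc2a5, Spp1 and Lpl are lower relative to Csf1r in every PBS library than in every Normoxic library, and Lyz2 and Fcrl2 are higher, while Tmem119 overlaps. Csf1r itself was higher in PBS, so a gene with unchanged CPM has a lower percentage there.

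Per library, the mean log2 level of the activated genes less that of the homeostatic genes, each relative to the Normoxic mean, was 0.29, -0.16 and -0.14 for the Normoxic libraries. It was 1.51, 0.33 and 0.85 for the PBS libraries and 0.28, 0.73 and 0.34 for the Gel libraries. All PBS libraries lay above all Normoxic libraries, PBS replicate 2 by a small margin. The Gel libraries lay between, with Gel replicate 1 inside the Normoxic range and the others inside the PBS range. This difference is a description of the 2 lists and was not tested.

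The hydrogel with procyanidin C1 was compared with PBS among OIR retinas. None of the 43 genes was called in either direction by edgeR, and 0% of all 17362 genes were. At an unadjusted p under 0.05 stood 6 of the 43 genes and 5.54% of all genes. DESeq2 and limma also called 0 of the 43, while DESeq2 called 64 genes in all. Of the 43 genes, 37 had a negative log2 fold change, against 52.7% of all genes, with a median of -0.36 against -0.01. Without PBS replicate 3 these were 30 genes and -0.24, and without Gel replicate 1 they were 35 genes and -0.26. In 10 of the 43 every Gel library lay below every PBS library, against 5.15% of all genes, and in 0 of them above, against 2.73%.

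By role, the median log2 fold change in Gel against PBS was -0.18 for homeostatic, -0.53 for activated and -0.52 for shared myeloid genes. The homeostatic median changed sign to 0.08 without PBS replicate 3, when the activated median was -0.40 and the shared myeloid median -0.29. The 6 genes with an unadjusted p under 0.05 were activated or shared myeloid genes, all lower in Gel. The log2 fold change was -1.29 ± 0.38 for Lgals3, -0.76 ± 0.23 for Cd68, -0.44 ± 0.14 for Axl, -0.84 ± 0.34 for Gpnmb, -1.04 ± 0.31 for Cd53 and -1.19 ± 0.49 for Aif1. Their adjusted p ranged from 0.626 to 0.843. The Gel values of Cd68, Axl and Gpnmb, given above, did not overlap those of PBS. Nor did those of Cd53, which measured 0.955, 0.831 and 0.784 CPM in the Normoxic libraries, 1.69, 2.52 and 3.04 CPM in the PBS libraries and 0.909, 1.23 and 1.39 CPM in the Gel libraries, whereas those of Lgals3 and Aif1 did.

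Csf1r, the receptor gene on which these cells depend, was close to level between the treatments, with a log2 fold change of 0.09 ± 0.12 in Gel against PBS (adjusted p = 0.987). Values for Cx3cr1 (-0.17 ± 0.16), Trem2 (-0.24 ± 0.26), Fcgr3 (-0.15 ± 0.26) and Laptm5 (-0.16 ± 0.18) lay within about 1 SE of 0 on the log2 scale. Those of Tyrobp (-0.63 ± 0.33), Fcer1g (-0.56 ± 0.26) and Spi1 (-0.69 ± 0.32) were lower, at unadjusted p of 0.0784, 0.0534 and 0.0551. P2ry12 and Sall1 had positive values of 0.25 ± 0.35 and 0.22 ± 0.23. For Lyz2 and Mrc1 the values were -0.25 ± 0.37 and -0.80 ± 0.51, and the latter was -0.13 without PBS replicate 3. Csf1 and Il34 stood at -0.47 ± 0.22 and -0.33 ± 0.16. Outside the 43, Fcrl2 had a log2 fold change of -0.66 ± 0.26 and Cd52 one of -1.30 ± 0.34, both without a call (adjusted p = 0.818 and 0.576), and 0 of the 14 signalling genes tested were called. C3 had a positive value of 0.72 ± 0.23 (adjusted p = 0.650). Red blood cell genes, as a sign of blood in the tissue, summed to 50.1, 50.5 and 46.1 CPM (Normoxic), 153, 46.6 and 198 CPM (PBS) and 31.1, 46.1 and 45.6 CPM (Gel), with PBS replicates 1 and 3 apart from the rest. Their part in the values was not tested.

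Against Normoxic retinas, some of the genes were also higher in Gel retinas. Of the 43 genes, 9 were called higher and 0 lower, against 1.12% and 0.288% of all genes, and the median log2 fold change was 1.13. In 28 of the 43 genes every Gel library exceeded every Normoxic library, against 11.1% of all genes. The called genes were Csf1r, Cx3cr1, Cd74, Trem2, Fcgr1, Fcgr2b, Fcgr3, Laptm5 and Lyz2. Csf1r stood 2.44-fold above Normoxic (log2 fold change 1.29 ± 0.13, adjusted p = 0.00101), Lyz2 6.67-fold (log2 fold change 2.74 ± 0.42, adjusted p = 0.0103) and Fcgr3 3.82-fold (log2 fold change 1.94 ± 0.28, adjusted p = 0.00876). Fcrl2, outside the count, rose by 2.47 ± 0.29 on the log2 scale (adjusted p = 0.00305). P2ry12 (0.50 ± 0.36) and Siglech (0.30 ± 0.33) were not called (adjusted p = 0.592 and 0.738). Only 1 activated gene, Cd74, was called (2.17 ± 0.38, adjusted p = 0.0207). Cd68 had a log2 fold change of 0.94 ± 0.24 and Lgals3 one of 1.36 ± 0.41, both above Normoxic without overlap and not called (adjusted p = 0.0902 and 0.154).

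The count of called genes in this comparison depended on single libraries. It was 18 without PBS replicate 3, and 1 without Normoxic replicate 1 or Normoxic replicate 2, 5 without Normoxic replicate 3 and 4 without Gel replicate 2 or 3. Csf1r was called in every alternative (largest adjusted p 0.0140). The other 8 genes lost their call without at least 1 library, at adjusted p of 0.0512 to 0.182, and Fcgr1 also with limma-voom (0.139) and with limma on log2(FPKM + 1) (0.129). PBS and Gel share the Normoxic libraries, so their comparisons with Normoxic are not independent of each other.

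Corrected for gene length, Ctss had the highest mean level of the 43 genes in each group. In Normoxic retinas Ctss (8.08 FPKM), Spp1 (7.38), Lpl (6.99) and Olfml3 (5.44) ranked highest. Neighbours among Ctss, Spp1 and Lpl did not differ by more than the larger SD (1.06, 0.387 and 0.999 FPKM in that order), whereas Lpl and Olfml3 did. Csf1r held rank 8 at 3.69 FPKM, level with Tyrobp at 3.71. In PBS retinas Ctss stood at 18.4 FPKM, followed by Tyrobp at 13.95, and Csf1r stood at 8.38. In Gel retinas the mean was 15.9 FPKM for Ctss, 9.04 for Tyrobp and 8.95 for Csf1r.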

How the data were processed

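Bulk RNA sequencing counts of 9 mouse retina libraries were used, with a table of whole-number counts per gene that the authors deposited. Their FPKM values, also deposited, each equal count over library total and gene length (relative spread 2.89e-10), add no measurement and gave levels per length. The build GRCm39 and the tools Bowtie2, RSEM (version 1.3.1) and DESeq2 (version 1.4.5) are named in the submitters' processing notes without their roles.

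In R 4.3.3, filterByExpr of edgeR 4.0.16 (minimum count 10) kept 17362 of 26683 genes (65.1%). After TMM scaling, all 9 libraries entered one quasi-likelihood F test by group (common dispersion 0.0312), with Benjamini-Hochberg adjustment over all kept genes. CPM divide counts by the library total. Totals of 29324142 to 35663470 counts set the precision of low levels, and 3 libraries a group set that of the comparisons. List means use log2 CPM with 2 counts added to each gene. Alternatives were DESeq2 1.42.0, other size factors, no filter, limma 3.58.1 (voom, and log2(FPKM + 1)), only the groups compared, removal of the length trend, a replicate block and leaving out each library.

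The test was tried on simulated counts of 17362 genes. In PBS against Normoxic it called 65.1% of genes simulated with 2-fold differences and 82.5% of those with 4-fold differences, with 3.77% false among the calls. For Gel against PBS these shares were 67.2%, 89.9% and 4.88%, and for Gel against Normoxic 55.7%, 75.8% and 7.14%. Of genes simulated with 1.5-fold differences it called 12.2% in PBS against Normoxic, 20% in Gel against PBS and 7.35% in Gel against Normoxic. The changed genes were drawn from all genes kept, and the shares for genes at low levels were not read apart.

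The members, roles and lists were chosen with earlier results of these data known. Values in every library were to be given for a panel of 21 genes and for up to 4 further genes of each role with the smallest p in PBS against Normoxic and 2 in Gel against PBS, and for other lists the same numbers of genes could be named. Spi1, Itgam, Syk, Apoe, Plin2 and the markers of monocytes and neutrophils were added after their values were seen. Promoter letters come from RefSeq, GRCm38.p6. The results of 2 listed genes outside the 43 are not reported here.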

Additional observations from a re-analysis of the deposited data

How the results depend on the processing

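Depth and 3 libraries a group limit what these data can show for genes under about 1 CPM. The 27 of 43 genes called in PBS against Normoxic ranged from 17 to 29 when each library was left out, and all genes called from 455 to 1184, against 1101 (DESeq2 1936). Called genes in Gel against PBS were 0 to 12 when each library was left out, 64 with DESeq2 and 3 with the length trend removed, and 0 of the 43 in all alternatives. In Gel against Normoxic, 9 of the 43 became 22 with DESeq2, 14 with the length trend removed and 16 with only the groups compared, and 1 to 18 when each library was left out. All genes called there, 245, became 854, 437 and 643, and 47 to 735. With limma on log2(FPKM + 1), which compresses low levels, the activated median log2 change was 0.41 in PBS against Normoxic, and in Gel against Normoxic the medians were 0.15 for homeostatic and 0.24 for activated genes. The activated median there ranged from 0.83 to 1.37 over the libraries left out. The share of higher calls in PBS against Normoxic, 67.9%, was 78.1% to 82.0% without a Normoxic library.

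The replicate numbers do not pair the libraries: the correlation of same-numbered deviations was -0.20, -0.05 and -0.10 for PBS with Normoxic, 0.54, -0.43 and 0.57 for Gel with PBS, and -0.20, -0.03 and -0.23 for Gel with Normoxic. With a replicate block 28, 0 and 13 of the 43 genes and 1050, 0 and 227 of all genes were called in PBS against Normoxic, Gel against PBS and Gel against Normoxic. In PBS against Normoxic, Aif1 and Il34 were called with the block (adjusted p = 0.0156 and 0.0347) and Itgax was not (0.0658).

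Signs changed only for genes not called, and the log2 fold changes over the libraries left out ranged as follows. In PBS against Normoxic the range was -0.38 to 0.24 for Slc2a5, -0.0036 to 0.50 for P2ry12 and -0.081 to 0.52 for Siglech. In Gel against PBS it was -0.65 to 0.22 for Gpr34, -0.38 to 0.43 for Msr1, -0.22 to 0.38 for Siglech, -0.17 to 0.51 for P2ry12, -0.43 to 0.045 for Trem2, -0.36 to 0.22 for Fcgr3, -0.37 to 0.091 for Ctss, -0.37 to 0.11 for P2ry6, -0.44 to 0.12 for Adgre1 and -0.52 to 0.17 for Lyz2. The highest of these values, except for Slc2a5 and for P2ry12 and Siglech in PBS against Normoxic, came without PBS replicate 3. Gpr34 was also 0.12 with limma-voom, and Msr1 -0.042 with the length trend removed. In Gel against Normoxic the range was -0.028 to 0.17 for Olfml3 and -0.074 to 0.28 for Spp1. The cause of these changes was not tested.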

Other observations

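Genes of dividing cells moved beside the microglial genes. Of 6 such genes, 4 were called higher in PBS than in Normoxic (edgeR, adjusted p under 0.05) and 0 lower, with a median log2 fold change of 3.16. Of the 4 that lay above the filter level in Normoxic, 2 were called, Mki67 and Cdk1, and the other 2 called genes, Top2a and Ccnb1, passed the filter through the groups in which they were high. Mki67, a marker of cycling nuclei, measured 0.409, 0.585 and 0.261 CPM in the Normoxic libraries, 3.82, 3.68 and 4.42 CPM in the PBS libraries and 1.38, 2.47 and 1.51 CPM in the Gel libraries. Every PBS library exceeded every Normoxic and every Gel library. Top2a, a topoisomerase of dividing cells, measured 0.136, 0.431 and 0.0653 CPM in the Normoxic libraries, 2.45, 2.45 and 4.59 CPM in the PBS libraries and 1.08, 1.54 and 2.02 CPM in the Gel libraries, in the same order. Mki67 rose by 3.24 ± 0.36 on the log2 scale and Top2a by 3.88 ± 0.56 (edgeR adjusted p = 0.000738 and 0.00300). In Gel against PBS their log2 fold changes were -1.15 ± 0.31 and -1.04 ± 0.45, not called (adjusted p = 0.592 and 0.879). Which cells of the retina divided cannot be read from whole tissue.

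H2-Ab1, a chain of MHC class II, measured 0.989, 1.29 and 1.14 CPM in the Normoxic libraries, 8.63, 4.19 and 6.39 CPM in the PBS libraries and 2.22, 4.07 and 3.20 CPM in the Gel libraries. It rose in PBS against Normoxic by 2.496 ± 0.33 on the log2 scale (edgeR adjusted p = 0.00196). In Gel its log2 fold change against PBS was -1.02 ± 0.30 (adjusted p = 0.629), not called. The Gel libraries were all below PBS, the nearest by a small margin (4.07 against 4.19 CPM). H2-Ab1 belongs to a list of 8 dendritic cell genes, of which 4 were tested. In Gel against PBS 3 of these 4 had a positive log2 fold change (median 0.39) and 0 were called. In PBS against Normoxic 1 of the 4 was called higher and 0 lower. Of 9 lymphocyte genes 7 were in the count table and 2 passed the filter and were tested. In PBS against Normoxic 1 was called higher and 0 lower, and the other tested gene had a log2 fold change of -0.46 without a call. The called gene, Cd8a, a co-receptor of T cells, measured 0.682, 1.02 and 0.588 CPM in the Normoxic libraries, 3.54, 2.35 and 3.85 CPM in the PBS libraries and 2.09, 2.72 and 3.53 CPM in the Gel libraries. It rose in PBS by 2.10 ± 0.33 (edgeR adjusted p = 0.00468) and stayed above Normoxic in Gel, by 1.87 ± 0.33 (adjusted p = 0.0231).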
